A study of Mus musculus with 2 samples.

Results

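The SLAM receptor cluster on mouse chromosome 1 was examined for Runx3 peaks in natural killer (NK) cells. Its peaks were chosen by position: a listed peak belonged to the region when its midpoint lay in chr1:173400000-173950000 (mm9), a window of 550 kb, and 11 of the 19647 listed peaks met this rule. The region itself was selected on a measured value, because it holds the peak of 5413 bp, which has the greatest width in the list. Number, width and spacing are therefore given below as descriptions, without a test.

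The list comes from a chromatin immunoprecipitation sequencing (ChIP-seq) experiment with 1 library per antibody. One library was made with a home-made polyclonal antibody against Runx3 and the other with non-immune rabbit serum, and no values of the serum library were used here. Both came from freshly isolated splenic NK cells of wild-type ICR mice, an outbred stock, injected on 2 occasions, 2 days apart, with complexes of IL-15 and its receptor alpha chain. Cells were enriched by negative selection and sorted for NKp46, an NK cell receptor, and 40000000 cells were fixed in 1% formaldehyde, frozen and sheared to fragments of about 200 bp. The sources used here do not give the age, sex or number of the mice, or an untreated group. All cells came from IL-15-treated animals, so bound regions cannot be related to the treatment. A peak list holds no expression values, so NK cell identity rests on the sort and was not checked with marker genes. The list gives only positions, so the read depth behind each peak is unknown.

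SLAM family receptors are immunoglobulin-type surface proteins of blood cells that tune activation when lymphocytes touch other cells. Most bind a second copy of themselves on the neighbouring cell, and their tails recruit small SH2-domain adaptors such as SAP and EAT-2, which help set whether the signal activates or inhibits. Runx3 is a Runt-domain transcription factor of NK cells and cytotoxic T cells that binds DNA with its partner Cbfb at motifs with the core TGTGGT. In the RefSeq gene table of GRCm38 the protein-coding genes follow each other in the order Cd244 (listed as Cd244a), Ly9, Slamf7, Cd48, Tma7-ps, Slamf1, Cd84 and Slamf6, with Itln1 before and Vangl2 after them. Cd244 encodes 2B4, an NK cell receptor whose ligand is CD48, the lipid-anchored product of Cd48. Ly9 (CD229), Slamf7 (CRACC), Slamf1 (CD150), Cd84 and Slamf6 (Ly108) encode receptors that bind their own kind. The peaks are in mm9 and the gene table is in another build, so no peak was assigned to any of the 7 genes, and that the window spans them in mm9 was taken from its definition and not checked.

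The reference promoters show which of the searched SLAM gene promoters hold the letters of the RUNX core, independently of the peaks. RefSeq promoters (GRCm38.p6, 250 bases before to 50 bases after the start site) were at hand for 6 of the 7 genes, all but Ly9. TGTGGT, or its reverse complement ACCACA on the other strand, occurred in 2 of these 6, Cd48 and Cd84. Among all 27025 genes of the promoter table, 18.9% had it in at least 1 promoter, and 16.8% of the 32851 promoters held it. The promoters of Cd244, Slamf7, Slamf1 and Slamf6 did not hold these letters in this window. In both promoters with the motif it lay on the strand of the gene and upstream of the start site, with its first base at position -76 in Cd48 and -45 in Cd84. The 120 bases directly before the start site are printed for these genes, because they are the searched members of the cluster with the core motif in the promoter. Capitals mark the TGTGGT motif, and both stretches run 5′ to 3′ on the plus strand of GRCm38.p6, chr1:171681872-171681991 for Cd48 and chr1:171839577-171839696 for Cd84. These positions were not converted to mm9, so they were not compared with the positions of the peaks.
Cd48: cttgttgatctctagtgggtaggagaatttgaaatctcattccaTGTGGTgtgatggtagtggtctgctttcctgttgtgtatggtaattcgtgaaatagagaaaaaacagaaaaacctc
Cd84: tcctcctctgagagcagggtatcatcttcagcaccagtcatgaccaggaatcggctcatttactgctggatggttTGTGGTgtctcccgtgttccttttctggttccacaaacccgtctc

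For comparison, 7 genes of signalling below SLAM receptors were searched in the same way. Of the 6 with a promoter in the table, all but Sh2d1a, 2 held the motif, beside 18.9% of all 27025 genes of the table. These were Sh2d1b1, which encodes EAT-2, and its neighbour Sh2d1b2, which encodes the related adaptor ERT, both on the strand opposite to the gene. Fyn, a kinase recruited by SAP, and the phosphatase genes Ptpn6, Ptpn11 and Inpp5d did not hold it. A match describes the reference letters only, and whether Runx3 peaks lie over these promoters was not tested.

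The widest Runx3 peak of the list lay toward the start of the SLAM window, at chr1:173487995-173493407. It measured 5413 bp, 8.96 times the list's median width of 604 bp. Its centre was 90.7 kb from the start of the window. No other peak of the region came near this width. The next in width, at chr1:173433302-173434260, measured 959 bp, so the widest peak was 5.64 times as wide as the second. On the whole of chromosome 1, which carries 1213 peaks, the second widest measured 2187 bp (chr1:74442972-74445158), and 2023 bp, 1951 bp and 1921 bp followed. The widest peak exceeded the second on the chromosome 2.48 times.

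The other 10 peaks of the region were of usual width, between 395 and 959 bp with a median of 587 bp. Before the widest peak lay a peak of 462 bp (chr1:173401047-173401508) and that of 959 bp. After it came a peak of 507 bp (chr1:173537197-173537703) and then the closest pair of the region, 395 bp (chr1:173557941-173558335) and 924 bp (chr1:173559185-173560108), with 849 bp between them. A peak of 734 bp (chr1:173573571-173574304) and 1 of 621 bp (chr1:173607675-173608295) ended the denser stretch. Farther on lay a second pair, 434 bp (chr1:173770520-173770953) and 761 bp (chr1:173775192-173775952), separated by 4.24 kb. The last, of 553 bp (chr1:173913557-173914109), stood alone.

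**Figure D1:**
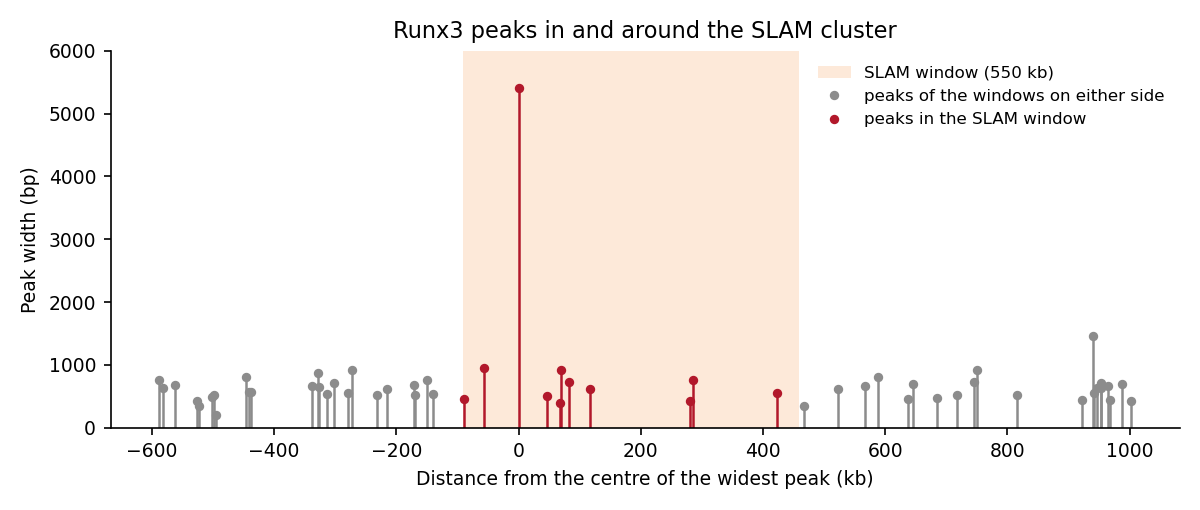
Width in bp of each Runx3 peak (vertical axis) against its distance in kb from the centre of the widest peak (horizontal axis), for the SLAM window (shaded, red) and the 550 kb window on either side (grey). The peak of 5413 bp stands over all others, which measure 959 bp or less in the SLAM window, and the right-hand part of that window holds few peaks.

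With all 11 peaks the median width of the region was 621 bp (interquartile range 484.5 to 842.5 bp), and without the widest it was 587 bp. Chromosome 1 had a median of 600 bp and an interquartile range of 492 to 769 bp. The medians with and without the widest peak lay on either side of that of the chromosome and inside its interquartile range. The mean, which follows extreme values, was 1069 bp with the widest peak and 635 bp without it, against 668 bp on chromosome 1. Of the 11 peaks, 1 was wider than 1000 bp (9.09%), beside 9.89% of the chromosome's peaks. That share lay near the background, and the extreme width was that of a single peak.

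The widest peak supplied 46.0% of the bases that peaks covered in the region. All 11 peaks covered 11.8 kb, or 2.14% of the window, and the other 10 together covered 6350 bp, or 1.15%. The covered share of the span of chromosome 1 was 0.421%. The widest peak alone equalled 0.852 times the sum of the others.

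Cut into 11 parts of 50 kb from its start, the region held 2, 1, 1, 3, 1, 0, 0, 2, 0, 0 and 1 peaks. The mean was 1 peak per 50 kb, or 0.909 without the widest, against 0.315 over the 3846 such parts of chromosome 1. The first 5 parts each held a peak, whereas 4 of the remaining 6 held none. Of the chromosome's parts 82.0% were empty, and 36.4% (4 of 11) were empty here. The part with 3 peaks was the fullest of the region, a number that 2.96% of the chromosome's parts reached or passed, up to 13 peaks. The part with the widest peak held no other peak, yet 10.8% of its bases were covered, while the part with 3 peaks was covered to 4.11%.

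**Figure D2:**
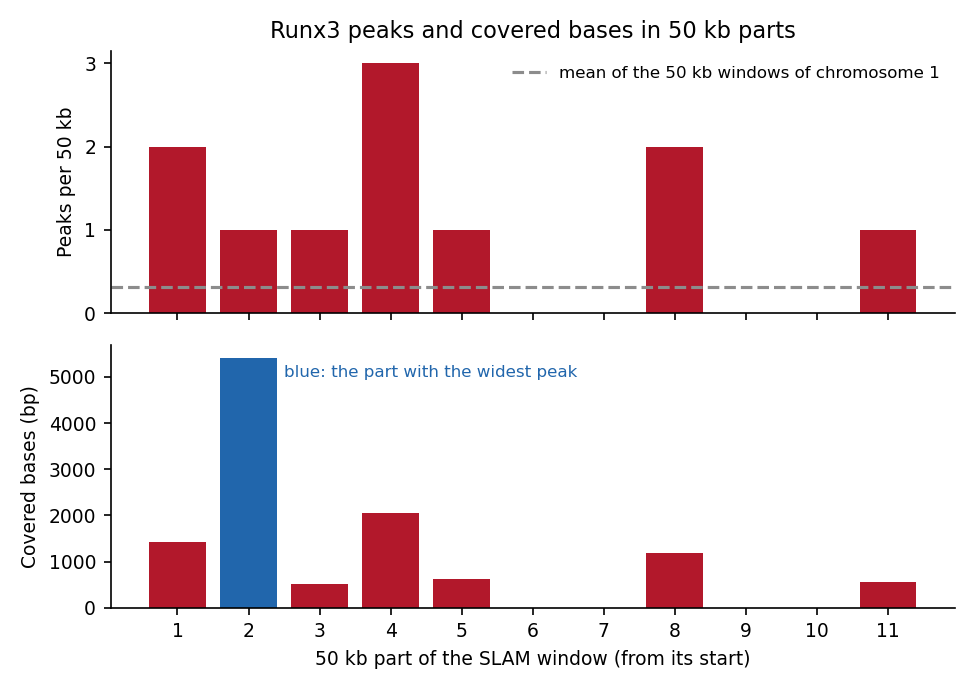
Number of Runx3 peaks (upper panel) and bases in bp covered by them (lower panel) in the 11 consecutive 50 kb parts of the SLAM window. The dashed line is the mean of 0.315 peaks over the 50 kb windows of chromosome 1, and the blue bar is the part that holds the single peak of 5413 bp.

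Spacing in the region was uneven. The median distance between midpoints of neighbouring peaks was 33.3 kb over 10 neighbouring pairs (range 1.51 to 163 kb), and 32.5 kb over 9 pairs when the widest peak was left out. Chromosome 1 had a median of 32.2 kb over 1212 pairs. Although the region was denser than the chromosome on average, its median spacing was close in value to that of the chromosome. Pairs at most 10 kb apart numbered 2 of 10 (20.0%), against 28.1% of the pairs on chromosome 1. The peak-free stretches of 162 kb and 138 kb in the later part of the window made up most of its empty length.

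The widest peak stood apart from its neighbours on both sides. The gap before it was 53.7 kb and that after it 43.8 kb, whereas the median gap from a peak to its nearest neighbour on chromosome 1 was 11.4 kb. A nearest gap of this length or more was found for 270 of the 1213 peaks (22.3%), and for 41 of the 120 peaks wider than 1000 bp (34.2%), whose median nearest gap was 19.6 kb. Its distance was therefore longer than the median but shared by many peaks of the chromosome. Within 50 kb of its midpoint lay 1 other peak, and within 100 kb lay 6.

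**Figure D3:**
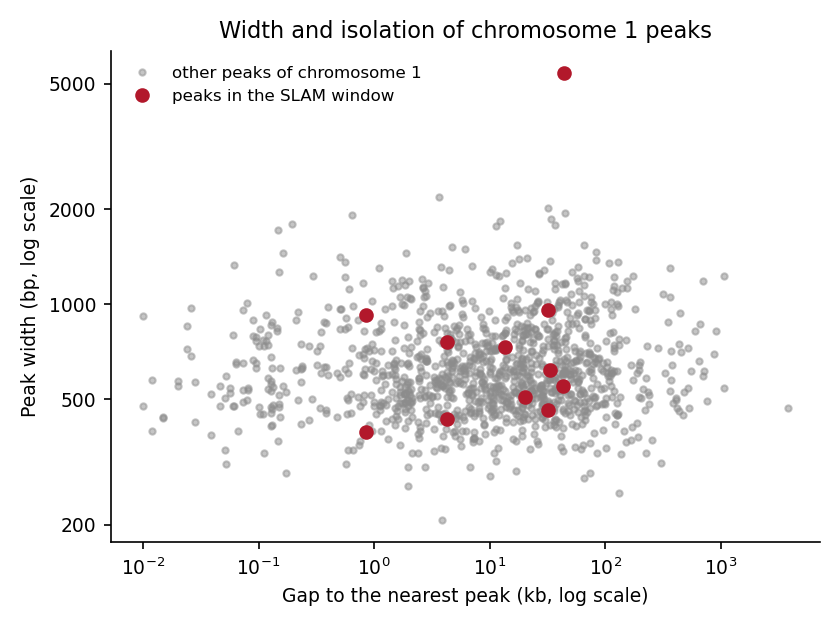
Peak width in bp against the gap in kb to the nearest other peak, both on log scales, for the peaks of chromosome 1 (grey) and the 11 of the SLAM window (red). The peak of 5413 bp lies alone at the top with a nearest gap of 43.8 kb, and the other 10 red points lie among the grey ones.

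Equal windows of 550 kb were laid end to end along chromosome 1 from the SLAM window, which gave 349 windows between the first and the last peak of the chromosome. They held a median of 1 peak (interquartile range 0 to 5, highest 26), and the SLAM window held 11, with an exact 95% Poisson interval of 5.49 to 19.7 that covers counting error only. Of the 349 windows, 32 (9.17%) held at least 11 peaks, the SLAM window included. At least 10 peaks, the number left without the widest, were held by 37 windows (10.6%). By number of peaks the region lay well above the median window, and dropping its widest peak moved this place by 5 windows of the 349.

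By covered bases the place of the region depended on its widest peak, for which the region was chosen. At least as many covered bases as the 11.8 kb of the SLAM window were found in 9 of the 349 windows (2.58%), itself included. For the 6350 bp that remained without the widest peak the number was 42 windows (12.0%). The other windows kept their own widest peaks in this count. The median window had 822 bp covered, and the highest value was 16.5 kb.

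Windows with a similar number of peaks put the region beside its nearest like. There were 26 other windows on chromosome 1 with 9 to 13 peaks, and their covered bases ranged from 4.73 to 8.51 kb with a median of 6.87 kb. The SLAM window, at 11.8 kb, lay above that whole range, and without the widest peak, at 6350 bp, it lay inside it. The region was chosen for that peak, so its place by covered bases is not independent of the choice. The widest peak of each of these windows measured 722 to 1493 bp. In its layout the region lay within the ranges of these 26 windows. Its 4 empty parts lay toward the low end of theirs (3 to 9, median 5), and 24 of the 26 had at least 4. Its fullest part of 3 peaks equalled their median of 3 (range 2 to 8), and 21 of the 26 reached at least 3. Its longest distance between neighbours, 163 kb, lay between their median of 130 kb and their highest value of 237 kb.

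**Figure D4:**
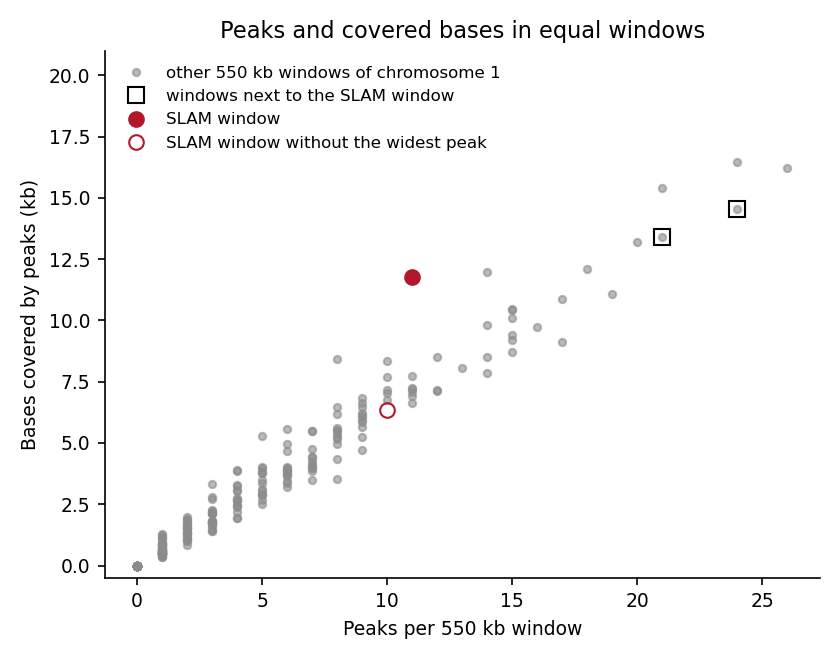
Bases in kb covered by Runx3 peaks against the number of peaks in 550 kb windows of chromosome 1. The SLAM window (filled red), chosen for its peak of 5413 bp, lies above the other windows with 9 to 13 peaks. It falls among them when its peak of 5413 bp is left out (open red) and the other windows keep all their peaks. The windows next to the SLAM window (squares) hold 24 and 21 peaks.

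The SLAM window lay between 2 of the fullest windows of the chromosome. The window before it (chr1:172850001-173400000) held 24 peaks over 14.6 kb, and the window after it (chr1:173950001-174500000) held 21 peaks over 13.4 kb. Both were among the 5 windows of chromosome 1 with the most peaks, beside chr1:36450001-37000000 with 26, chr1:135450001-136000000 with 24 and chr1:88150001-88700000 with 21. The SLAM window held fewer than either neighbour, and its peaks were also farther apart, at a median of 33.3 kb against 12.0 kb before and 19.2 kb after it. Median widths were alike in value, 597.5 bp before, 621 bp in and 630 bp after the SLAM window, but the widest peak of the neighbours measured 915 and 1455 bp. Each neighbour had 2 empty parts of 50 kb, and the SLAM window had 4.

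The edges of the window fell near peaks on both sides. The first peak inside, of 462 bp, had its midpoint 1.28 kb from the start of the window, and the last peak before it, of 541 bp, lay 48.9 kb outside. At the other end the last peak inside, of 553 bp, was 36.2 kb from the edge, and the next, of 342 bp, lay 7.59 kb beyond it. Moving the start of the window inward by 10 kb would drop 1 peak, and moving its end outward by 10 kb would add 1.

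The surroundings of the 5 widest peaks of the list were not alike. In 550 kb centred on each, the SLAM peak had 14 other peaks with a median width of 621 bp. This centred stretch was not the SLAM window. It took in peaks that lay before the SLAM window and left out the last peaks of the region. The peak of 5031 bp on chromosome 6 (chr6:47596610-47601640) had 9 others with a median of 653 bp, and that of 3335 bp on chromosome 11 (chr11:74643701-74647035) had 15 with a median of 767 bp. The peak of 3622 bp on chromosome 2 (chr2:77781559-77785180) had 0 others and that of 2974 bp on chromosome 8 (chr8:48758589-48761562) had 3. Among the 4 with others nearby, the SLAM peak had the largest distance between its own width and the widest of these others. The others near it reached 959 bp, and those near the chromosome 6, 11 and 8 peaks reached 1210, 1603 and 1290 bp. That distance starts from the width on which the region was chosen, so it is not independent of the choice. The SLAM peak's share of the covered bases in its centred window was 37.2%. This was below the share of 3 of the other 4 peaks, 100% on chromosome 2, where no other peak lay in the window, 52.6% on chromosome 8 and 45.1% on chromosome 6, and above the 20.8% of the chromosome 11 peak.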

How the data were processed

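Per the labels' protocols, ELAND aligned the 50 bp reads. CASAVA 1.8.2 and mm9 are in the submitters' processing notes, whereas the labels spell the build mmp9. The sources used here do not give the peak caller, its threshold or any use of the serum control. A list without header was deposited by the authors, with peak positions (chromosome, start counted from 0, end) and without scores; its deposited name carries the words "to small", which are not explained, so whether it is complete is unknown. Starts are printed counted from 1.

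Widths, gaps and window counts were computed with Python 3.11.15, numpy 2.4.6 and pandas 2.3.3; the interval on the count is from scipy 1.17.1. Window counting was tested on simulated data in which no peak crossed a window edge. The midpoint rule was therefore not tried at an edge. A peak belonged to a window by its midpoint, and windows were kept when whole between the first and last peak of a chromosome, since chromosome lengths were not used. Every peak of the region was named, and of other windows the 5 fullest on chromosome 1, the 2 adjoining and those around the 5 widest peaks. The region, its members, the gene lists and the comparisons were chosen with earlier results of these data known. With 1 Runx3 library there is no replicate, and no test was made. Promoters are RefSeq's, matched by symbol or synonym. A planned search of the proteins for signalling motifs was not run. The mm9 genome was not used, so no peak sequence is shown.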

Additional observations from a re-analysis of the deposited data

How the results depend on the processing

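The 7 measures of the region were recomputed 34 times under other settings. In 26 they stayed within their interval, or within 1.5 times the reported value for counts and covered bases, and in 8 they moved. Peaks per 50 kb is the count rescaled, so its outcomes repeat those of the count. The intervals treat the peaks, pairs and windows of 1 library as independent, so staying inside them is a weak sign of stability. Without the peak over 5000 bp the covered bases fell to 6350 bp, and the share of chromosome 1 windows with at least as many rose from 2.58% to 12.0%, by construction. Restricting the list to peaks of median width or more left 6, or 0.545 per 50 kb, and a share of 1.15% of windows by covered bases, from the smaller list. The median spacing was then 56.9 kb against 33.3 kb, inside its wide 95% interval of 4.84 to 138 kb over 10 pairs. Among chromosome 1 windows that hold a peak, 15.8% had at least as many peaks as the region. Over the windows of all chromosomes the shares were 13.9% by peaks and 5.12% by covered bases, so the region stood out less against the genome than against chromosome 1; the cause was not tested. Joining gaps of up to 1000 bp merged the closest pair and left 10 peaks. Windows by any overlap changed nothing, and no peak crossed an edge of the region. No paired analysis was possible because there is 1 library for each antibody. The list holds no depth, so missed weak sites cannot be counted.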
